A study of Danio rerio with 15 samples.

Results

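The comparison described here sets zebrafish embryos exposed to 10, 50 or 100 μg/l dibutyl phthalate (DBP) against embryos kept at 0 or 5 μg/l. It takes 14 of the 15 samples, 9 in the high group (3 libraries for each dose) and 5 in the low group (2 controls and 3 libraries at 5 μg/l). A transcript was a member when it had at least 10 counts in 5 or more of these libraries, which held for 30004 of the 46488 transcripts listed. Libraries are named by dose and replicate letter, so that 100E is replicate E at 100 μg/l. The 15th library, control 0B, took no part in the fit and is given only as a check. The labels mark another control, 0D, as an outlier, and 0D was kept in every value here unless it is said to be left out. The study left out a control that diverged in its principal component analysis, and its text does not name it. The 14 libraries used here, without 0B, held 39882 transcripts with a count. That is close to the number the paper gives after leaving its control out. The same number without 0D was not worked out. Which of these controls the mark was meant for was not settled here.

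Every sample was a pool of 10 whole embryos of the AB wild-type strain, exposed from the 256-cell stage for 120 h in glass beakers and collected at the protruding-mouth stage. DBP was dissolved in fish water with no solvent, so the controls carried no vehicle. For the 50 μg/l samples the protocol text of the labels writes 30, while their titles give 50, which is used here. RNA came from pools chosen for RNA quality, and the letters name replicate beakers. In whole embryos, fewer cells of a type and less RNA per cell cannot be told apart. The labelled tissue was not checked against its markers, because no table used here pairs the transcripts at large with genes.

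DBP is a plasticiser that leaches from polymers into surface water and acts on endocrine and developmental pathways in vertebrates. One pathway studied in this setting is that of retinoic acid, a vitamin A derivative that patterns the embryo. Retinoic acid binds nuclear receptors that pair with retinoid X receptors at DNA, and enzymes of the Cyp26 family break it down.

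The libraries held 17.2 to 28.0 M estimated counts and 31932 to 33384 detected transcripts, with no difference between the groups in either that passed an exact permutation test (two-sided p = 0.359 and 0.238, n = 5 and 9, 2002 arrangements). One technical measure did separate them. The effective length is the length that Salmon gives a transcript in a given library from its model of where reads start. It is not a measured fragment length, and what moved it between libraries was not tested. Over 28857 transcripts longer than 300 bases, the first component of log2 effective length held 82.4% of the variance between the 14 libraries. The 5 low libraries scored from -0.39 to -0.26 and the 9 high libraries from 0.0082 to 0.34, with no overlap (exact permutation test, two-sided p = 0.0004995). The library numbers in the labels also run in dose order, 2 to 6 for the low group and 7 to 15 for the high group. Inside the high group the score ran from 0.0082 to 0.13 at 10 μg/l, 0.11 to 0.32 at 50 μg/l and 0.19 to 0.34 at 100 μg/l. Tests among these doses, given below, carry this shift too. DBP, effective length and library number therefore cannot be told apart in this comparison, and no stretch of the component holds both groups.

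**Figure D1:**
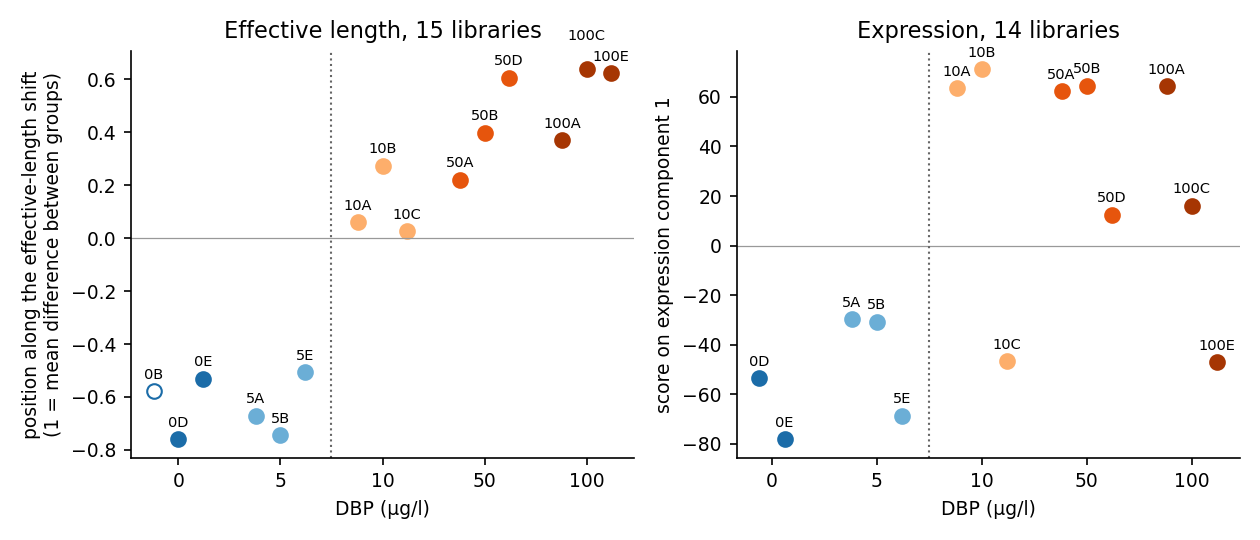
Position of each library along the effective-length shift between the groups (left, 1 = the mean difference between them) and its score on the first expression component (right), by DBP dose in μg/l. Each point is 1 library, the open point is control 0B, and the dotted line parts 0-5 from 10-100 μg/l. On the left the groups do not meet, while on the right 10C and 100E lie among the 0-5 μg/l libraries.

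The expression values did not separate the libraries in the same way. The first component of log2 normalized CPM (counts divided by the TMM-adjusted library size) held 33.4% of the variance. Its mean was -52.2 ± 21.9 (SD, n = 5) at 0-5 μg/l and 29.0 ± 48.1 (SD, n = 9) at 10-100 μg/l (exact permutation test, two-sided p = 0.00949). Libraries 10C and 100E scored -46.6 and -47.0, inside the range of the low group, -78.2 to -29.6. The other 7 high libraries lay between 12.5 and 71.2. Those of letters A and B scored 62.4 to 71.2, 50D 12.5 and 100C 16.1. In the low group 5A and 5B scored -29.6 and -30.8, 0D -53.5, and 0E and 5E -78.2 and -68.8. Letters A and B thus scored highest in each group, and the letters are not balanced between the groups. Libraries 10C and 100E scored below the others of their own dose, and counts are given below with and without them. What set them apart was not tested.

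At 10-100 μg/l, 481 transcripts differed from 0-5 μg/l (edgeR quasi-likelihood test, Benjamini-Hochberg adjusted p under 0.05), which is 1.6% of those tested. Of these, 295 were higher (0.983%) and 186 lower (0.62%). At an unadjusted p under 0.05, 7089 transcripts passed (23.6%), 3666 higher and 3423 lower. The median log2 fold change over all transcripts tested was 0.015. The direction of the split held under some alternatives and not under others. More were higher than lower with DESeq2 (1462 and 1104), effective length as an offset (1148 and 850) and dose as a factor (201 and 134). The split was 1029 higher and 1361 lower with TPM (counts per effective length, scaled to a common total). It was 448 and 444 with limma on counts scaled by the median of ratios. It was 187 higher and 304 lower with the replicate letter as a block.

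The count rested strongly on single libraries. It was 3010 without 10C (10.1% of those tested), 3233 without 100E (10.9%) and 7505 without both (25.6%), and 480, 480 and 479 of the 481 were among these. Since 10C and 100E were picked out by their expression values, these numbers are a description and not an independent test. Without 0D, which the labels mark as an outlier, the count was 64, without 0E 87, and without 5E 73. It was 95 with 0B added to the low group and 23 with 0B in place of 0D. The numbers without each of the other libraries lay on the low side too, at 123 to 333.

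Most of the called transcripts changed modestly. Among the 295 that rose, the median log2 fold change was 0.56 (quartiles 0.40 and 0.91). It was under 1 for 230 of them, from 1 to 3 for 37 and over 3 for 28. Among the 186 that fell, the size of the log2 fold change had a median of 0.54 (quartiles 0.37 and 0.85), and it was under 1 for 151, from 1 to 3 for 23 and over 3 for 12. Over all transcripts tested, 6.99% had a log2 fold change of 1 or more in size and 0.717% of 3 or more.

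Called transcripts were mostly the better counted ones. The share called was 0.353% of the 3971 transcripts under 1 CPM, 1.04% from 1 to 10 CPM, 2.29% from 10 to 100 CPM and 5.83% of the 1236 over 100 CPM. Of these last, 52 were higher and 20 lower, with a median log2 fold change of 0.42 in size. The median level was 17.4 CPM for the transcripts that rose and 19.3 CPM for those that fell, against 6.81 CPM for all tested. By length, the share called fell from 2.44% of transcripts of up to 300 bases to 0.689% of those over 4000 bases. The transcripts that rose had a median length of 933 bases and those that fell of 1148 bases, against 1260 bases over all.

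**Figure D2:**
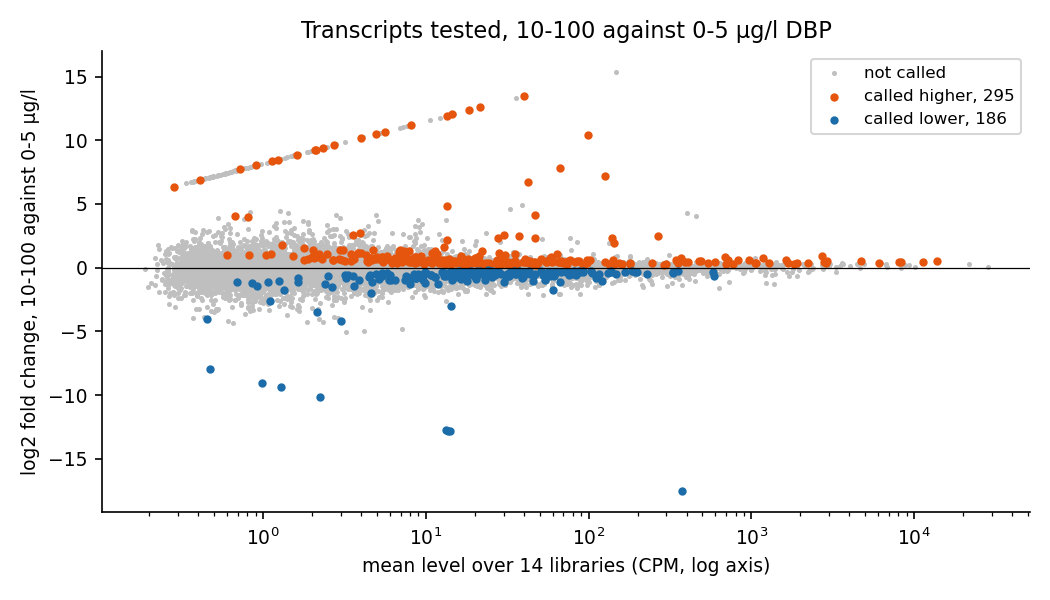
log2 fold change of 10-100 against 0-5 μg/l (vertical axis) against the mean level over the 14 libraries (CPM, log axis) for the 30004 transcripts tested. Orange points are the 295 called higher, blue points the 186 called lower and grey points the rest, and the rising line of points at the top holds transcripts with no count in any 0-5 μg/l library.

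The share called also varied with the effective length, though not in a graded way. Transcripts were parted into 5 bins by how far their own effective length moved between the groups. In the bin where it shortened most at 10-100 μg/l (median log2 shift -0.14), 1.4% were called higher and 0.3% lower. In the bin where it lengthened most (0.10), 0.917% were called higher and 1.27% lower. The bins between did not follow this order, with 0.733% higher and 0.35% lower in the second, 1.1% and 0.825% in the third, and 0.733% and 0.312% in the fourth. Across the 30004 transcripts the rank correlation of fold change and shift was -0.035, a description in which all points share the same 14 libraries. With each transcript's effective length as an offset, 1998 transcripts were called, 459 of the 481 among them. Its part in the calls beyond this was not tested.

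The groups did not overlap for 251 transcripts that were higher in each of the 9 high libraries than in each of the 5 low ones (0.837% of those tested) and for 241 that were lower (0.803%). Of these, 155 and 128 were also called. Without 10C and 100E the groups did not overlap for 1516 higher and 2459 lower transcripts. With 0B added to the low group 97 and 94 did not overlap.

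Each library was then placed on transcripts called without it, on a scale where 0 is the mean of the low group and 1 the mean of the high group. The 5 low libraries had medians of 0.045 (0D), 0.15 (0E), 0.20 (5A), 0.10 (5B) and 0.093 (5E), over 64 to 165 called transcripts. Between 75.9% and 83.6% of those transcripts lay nearer the low mean. Of the high libraries, 10A, 10B, 50A, 50B, 50D, 100A and 100C had medians from 0.91 to 1.18, and 83.5% to 98.7% of the transcripts lay nearer the high mean. Libraries 10C and 100E, in contrast, had medians of 0.11 and 0.091, with 17.9% of 3010 and 23.3% of 3233 transcripts on the side of their own group. On these transcripts and on the first expression component they lay with the 0-5 μg/l libraries. Their effective lengths lay with the other 10-100 μg/l libraries. The second expression component held 11.8% of the variance. There 100E scored -55.0, near 100A (-41.5) and 100C (-47.7), and 10C scored -2.04. The low libraries lay between 2.20 and 41.1 on it. The other high libraries scored 23.2 (10A), 44.9 (10B), 21.4 (50A), -15.1 (50B) and -31.6 (50D), so the groups overlapped on this component.

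Control 0B lay between the groups on the called transcripts, somewhat nearer the high mean than the low mean. Over the 481 called transcripts its median position was 0.64 (quartiles 0.24 and 1.03), and 39.5% of them lay nearer the low mean. It was inside the range of the high libraries for 153 of the 295 that rose and 106 of the 186 that fell. It was inside the range of the low libraries for 55 and 41. The high range is drawn from more libraries than the low range, 10C and 100E among them, so a library falls inside it more easily. These range counts therefore do not show on which side 0B lay. The effective lengths of 0B were those of the low group, with a position of -0.58 where the low libraries lay between -0.76 and -0.51. Its 34413 detected transcripts were more than in any other library, where the highest number was 33384. Whether 10C, 100E and 0B carry the right labels was not tested, and the pooled counts take the labels as given.

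**Figure D3:**
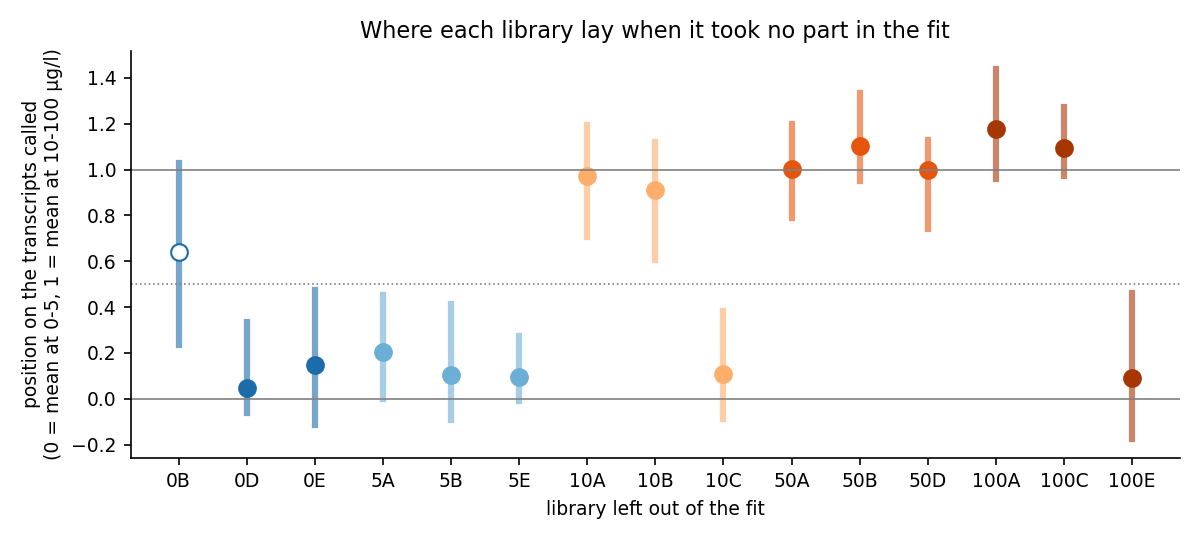
Position of each library on the transcripts called without it (vertical axis, 0 = mean at 0-5 μg/l, 1 = mean at 10-100 μg/l). Points are medians, bars run between the quartiles, and 0B (open) is placed on the 481 transcripts called over the other 14 libraries. 10C and 100E lie beside the 0-5 μg/l libraries, at 0.11 and 0.091, and 0B lies at 0.64.

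The largest fold changes belonged to transcripts with no count in a whole group. Among the 481 were 20 of the 117 tested transcripts at 0 in all 5 low libraries and all 8 at 0 in all 9 high libraries. Each of these passed the filter only through the group in which it was counted, so their numbers are a description. The 4 given next were also chosen as the largest rises and falls, so their values are given with no test. As the files and reference tables used here do not pair these identifiers with genes, the extremes are given by transcript identifier alone.

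ENSDART00000172927.2 had no counts in the 5 low libraries. In the 9 high libraries its lowest value was 9.33 CPM (50B), its median 61.5 and its highest 103 CPM (50D). Its mean of 62.3 ± 29.9 CPM (SD, n = 9) was at least 510-fold higher, with 3 counts per library as the floor in the low group. The effective length of this transcript moved from 424 to 394 bases. Control 0B had no counts of it either.

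ENSDART00000076355.6 was likewise at 0 in the low libraries. It lay between 17.8 (10C) and 52.6 CPM (50B) in the high libraries, with a median of 33.6 CPM. The mean of 33.5 ± 9.32 CPM (SD, n = 9) was at least 274-fold higher. Its effective length moved from 2236 to 2567 bases. Control 0B, however, had 73.6 CPM, more than any high library, so the bound holds for the 14 libraries and not with 0B in the low group.

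ENSDART00000173554.2 was abundant in the low libraries, at 1022 (0D), 885 (0E), 1288 (5A), 1220 (5B) and 794 CPM (5E), and was at 0 in all 9 high libraries. The level was at least 7588-fold lower at 10-100 μg/l. In 0B it was at 12.9 CPM, far below the low libraries. The effective length of this transcript moved from 407 to 538 bases, and its part in the fall was not tested.

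ENSDART00000151375.3 had 28.7 (0D), 49.8 (0E), 42.7 (5A), 52.8 (5B) and 21.8 CPM (5E) in the low libraries and none in the high ones. It was at least 285-fold lower at 10-100 μg/l. Its effective length moved from 456 to 606 bases. Control 0B had none, as in the high libraries. Of the 20 called transcripts absent from the low libraries, 15 had at least 10 counts in 0B. Of the 8 absent from the high libraries, 4 had at least 10 counts in 0B, as in the low libraries, and 3 had none.

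Transcripts with gene symbols are 15 that the paper, or the parts of its supplement used here, pair with one. Of these, 11 come from a list of deregulated transcripts and 4 belong to the retinoid pathway. The 11 are the rows that the supplement displays first, in order of identifier, from a much longer list. They were not chosen for their function or the size of their change. The supplement adds suffixes to *slc9a3r1a*, *dap*, *pms1*, *unc45b*, *hspa4b* and *yipf2*, because several identifiers can share a symbol. Each value here belongs to a single transcript and not to the gene. Other entries with the same symbol are not given and may differ. The study called these 11 deregulated on these samples. It plotted the other 4, and of these it reports *rxraa* as downregulated and *cyp26a1* as selected. The changes of both sets are therefore not independent evidence of a direction. All 15 were tested, and 2 passed, *slc9a3r1a* lower and *yipf2* higher, where 1.6% of all transcripts tested passed. None had groups that did not overlap, as held for 0.837% of all transcripts higher and 0.803% lower. Without 10C 8 of the 15 passed, *dap*, *pms1*, *cldn29*, *cdh11*, *trim101* and *rxraa* in addition, where 10.1% of all transcripts passed. Without 100E 5 passed, *dap*, *cdh11* and *trim101* in addition, where 10.9% of all did.

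*slc9a3r1a* (ENSDART00000000069.8) encodes a scaffold protein that ties membrane transporters to the cytoskeleton. It had 21.3 (0D), 29.5 (0E), 16.7 (5A), 18.5 (5B) and 23.4 CPM (5E) at 0-5 μg/l. At 10-100 μg/l the lowest library had 12.9 CPM, the median was 13.6 and the highest 18.0 CPM. Of the 9 high libraries, 7 lay below each low one, and the exceptions were 10C (18.0 CPM) and 100E (17.6 CPM). Its log2 fold change was -0.58 (SE 0.13, 95% interval -0.86 to -0.30, adjusted p = 0.0451, edgeR). The fold change stayed negative under each of 28 alternatives, while the adjusted p-value (edgeR, DESeq2 or limma) lay between 0.00314 and 0.194 and passed in 11 of them. With the replicate letter as a block it was 0.0514 (edgeR), and with 0B added 0.0972. Of the single libraries, the call was kept without 5A, 10C or 100E and lost without any of the other 11, with an adjusted p of 0.0622 to 0.139 (edgeR).

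*yipf2* (ENSDART00000003133.10) encodes a membrane protein of the Golgi. It had 16.9 (0D), 20.3 (0E), 16.3 (5A), 16.2 (5B) and 17.2 CPM (5E) in the low libraries. The high libraries ran from 19.2 (10C) to 25.5 CPM (10A), with a median of 23.4 CPM, and all but 10C lay above each low library. The log2 fold change was 0.42 (SE 0.076, 95% interval 0.25 to 0.58, adjusted p = 0.0210, edgeR). It was positive under each of 28 alternatives and passed in 21 of them. Without 0D, 5A, 5B or 5E the adjusted p-value (edgeR) lay above the threshold, between 0.0544 and 0.0718. With 0B added, which had 22.5 CPM, it was 0.0857 (edgeR). Its effective length moved the other way, from 732 to 692 bases.

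*cldn29*, a claudin of tight junctions, and *cdh11*, a cadherin of mesenchymal cells, are cell contact genes and missed the threshold. *cldn29* (ENSDART00000002128.7) ranged from 7.53 to 9.27 CPM in the low libraries. In the high libraries it ranged from 7.80 (10C) to 13.0 CPM, and all but 10C lay above each low library. Its log2 fold change was 0.42 (SE 0.12, adjusted p = 0.0794, edgeR). *cdh11* (ENSDART00000002279.8) was at 97.8 (0D), 91.0 (0E), 117 (5A), 111 (5B) and 96.2 CPM (5E) against a lowest value of 65.1, a median of 81.6 and a highest of 93.1 CPM (10C). Except for 10C, each high library lay below each low one. Its log2 fold change was -0.34 (SE 0.090, adjusted p = 0.0659, edgeR), and it passed in 9 of the 28 alternatives.

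Among genes of muscle and protein folding, *unc45b* is the myosin chaperone of muscle, *hspa4b* an Hsp110-type chaperone and *trim101* a tripartite-motif protein. The *unc45b* transcript (ENSDART00000002164.9) kept to 30.1 to 35.4 CPM in the low libraries, while the high ones spread from 23.8 (10B) to 71.3 CPM (100E). Its means were 31.9 ± 10.6 at 10 μg/l, 40.0 ± 5.01 at 50 μg/l and 62.4 ± 11.5 CPM at 100 μg/l (SD, n = 3 each). Pooled, the log2 fold change of 0.42 (95% interval -0.069 to 0.90) did not pass (adjusted p = 0.276, edgeR), and neither did the difference among the 3 doses (adjusted p = 0.310, edgeR). *trim101* (ENSDART00000002398.7) lay between 30.7 and 39.5 CPM in the low libraries and between 31.6 (10C) and 55.2 CPM (100C) in the high ones, of which 7 lay above each low library. Its log2 fold change was 0.45 (SE 0.12, adjusted p = 0.0752, edgeR). *hspa4b* (ENSDART00000002469.7), at 177 ± 8.06 (SD, n = 5) and 179 ± 12.0 CPM (SD, n = 9), had a log2 fold change of 0.016 with a 95% interval from -0.10 to 0.13.

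**Figure D4:**
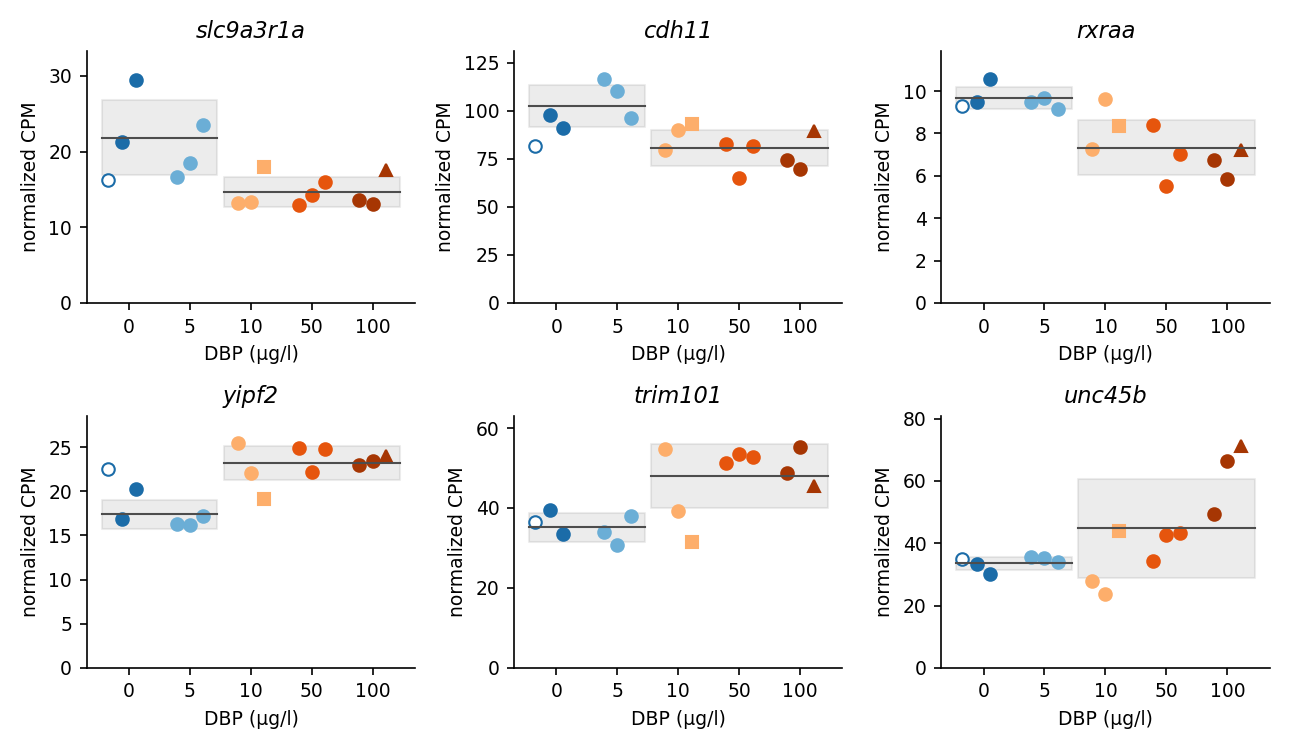
Normalized CPM of 6 transcripts by DBP dose (μg/l), 1 point per library. Lines and bands are the mean ± SD of the 5 libraries at 0-5 μg/l and of the 9 at 10-100 μg/l, the open point is 0B, the square 10C and the triangle 100E. For *slc9a3r1a*, *cdh11*, *yipf2* and *trim101* the square is the 10-100 μg/l point closest to the 0-5 μg/l mean, and *unc45b* has its highest values at 100 μg/l.

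In the retinoid pathway, *rxraa* encodes a retinoid X receptor. Its transcript (ENSDART00000080481.6) had 9.48 (0D), 10.6 (0E), 9.47 (5A), 9.67 (5B) and 9.16 CPM (5E) in the low libraries. In the high libraries the lowest was 5.52 (50B), the median 7.22 and the highest 9.65 CPM (10B), and only 10B reached the range of the low group. The log2 fold change of -0.40 (SE 0.12, 95% interval -0.65 to -0.14) missed the threshold (adjusted p = 0.0897, edgeR). It was negative under each of 28 alternatives and passed in 3, with DESeq2 and without 10C, alone or together with 100E. The levels at 10, 50 and 100 μg/l were 8.42 ± 1.19, 6.98 ± 1.43 and 6.60 ± 0.705 CPM (SD, n = 3 each). The paper fits a curve to this transcript and describes a fall already at the lowest dose. Here it was at 10.0 ± 0.768 CPM (SD, n = 2) at 0 μg/l and 9.44 ± 0.259 CPM (SD, n = 3) at 5 μg/l. The difference between these was not called (unadjusted p = 0.634, edgeR). That test takes only the 0 and 5 μg/l libraries, while the paper's curve takes all doses, so these measures are unlike. The paper also rests its retinoid proposal on other transcripts, which are not given here.

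None of the 3 enzymes that break down retinoic acid passed the test. For *cyp26a1* (ENSDART00000041728.7) the log2 fold change was 0.15 (95% interval -0.11 to 0.40, adjusted p = 0.471, edgeR). It was at 14.5 ± 1.69 CPM (SD, n = 2) at 0 μg/l and 17.3 ± 1.29 CPM (SD, n = 3) at 5 μg/l. It was at 20.2 ± 1.02, 19.2 ± 0.430 and 14.4 ± 1.24 CPM (SD, n = 3 each) at 10, 50 and 100 μg/l. The pooled value thus averages over the differing means of these doses. The paper reports this transcript as selected along the dose gradient, with no curve fitted, and proposes a bell shape from the plotted values. The difference among 10, 50 and 100 μg/l was not called either (unadjusted p = 0.000861, adjusted p = 0.301, edgeR). For *cyp26b1* (ENSDART00000110347.3) the interval ran from -0.18 to 0.15 and for *cyp26c1* (ENSDART00000077809.5) from -0.29 to 0.088.

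The remaining named transcripts also missed the threshold. *dap*, whose product restrains autophagy (ENSDART00000000070.7), had 17.8 ± 2.85 CPM (SD, n = 5) at 0-5 μg/l and 12.4 ± 2.51 CPM (SD, n = 9) at 10-100 μg/l. All high libraries but 10C and 100E lay below each low library. Its log2 fold change was -0.52 (SE 0.14, adjusted p = 0.0733, edgeR), and it passed in 7 of the 28 alternatives. *pms1* (ENSDART00000002053.11), a DNA mismatch repair gene, had 5.74 ± 0.581 and 7.14 ± 0.665 CPM, a log2 fold change of 0.31 (SE 0.090, adjusted p = 0.0837, edgeR). *tdh2* (ENSDART00000001691.8), a threonine dehydrogenase, had 28.8 ± 3.05 and 22.8 ± 6.74 CPM (adjusted p = 0.266, edgeR). *mid1ip1l* (ENSDART00000003170.5), which in zebrafish acts on the cytoskeleton of the early embryo, had 18.9 ± 0.677 and 20.8 ± 2.33 CPM (adjusted p = 0.329, edgeR).

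**Figure D5:**
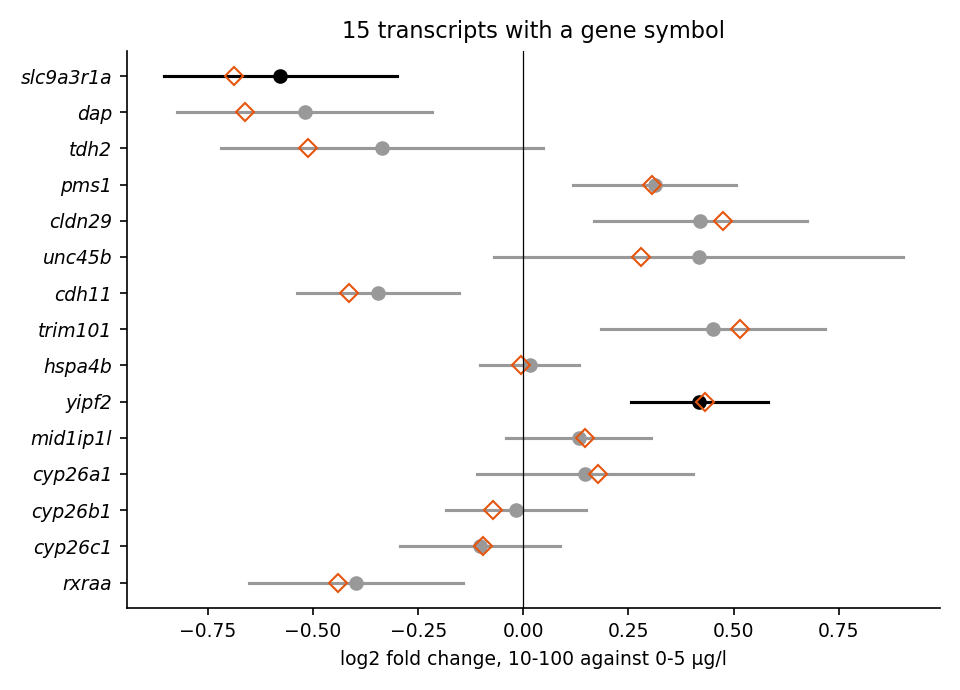
log2 fold change of 10-100 against 0-5 μg/l for the 15 transcripts with a gene symbol. Points and bars are the edgeR estimates with 95% intervals (black where the adjusted p was under 0.05), and orange diamonds are the estimates without 10C and 100E. Only *slc9a3r1a* (-0.58) and *yipf2* (0.42) are black, and without 10C and 100E 9 of the 15 passed, where 25.6% of all transcripts did.

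Few transcripts passed the test between doses that were pooled. Among 10, 50 and 100 μg/l, 3 transcripts differed (edgeR, adjusted p under 0.05, 0.01% of those tested), with 2841 at an unadjusted p under 0.05. A transcript of 1107 bases stood at 56.5 to 62.5 CPM at 10 μg/l, 76.8 to 92.0 CPM at 50 μg/l and 110 to 124 CPM at 100 μg/l, against 49.1 to 61.7 CPM in the low libraries. A transcript of 483 bases went from 4.14 to 5.2 CPM at 10 μg/l, to 7.47 to 9.49 CPM at 50 μg/l and 13.5 to 16.3 CPM at 100 μg/l. One of 423 bases was at 1.07 to 1.15 CPM at 10 μg/l and at 0 in all 6 libraries at 50 and 100 μg/l. These were chosen after their values were seen, and none was among the 481.

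Between 5 and 0 μg/l, 1 transcript differed (edgeR, 0.00333%), with 683 at an unadjusted p under 0.05. It had 780 bases, was at 0 in both controls and at 8.31 to 13.2 CPM at 5 μg/l, and 0B had 15.5 CPM of it. Of the 481 transcripts called between the groups, 35 had an unadjusted p under 0.05 among the high doses (7.28%, against 9.47% of all tested) and 14 between 5 and 0 μg/l (2.91%, against 2.28%). With 2 controls and 3 libraries at each other dose, these tests had few libraries to detect a difference within a group. The main test counts differences among pooled doses as spread, so transcripts that have them are called less easily. The shares of the 481 therefore do not show whether called transcripts vary less within a group.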

How the data were processed

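Poly-A RNA of pooled embryos was sequenced as single reads of 75 bases. The authors trimmed the reads with Trimmomatic and quantified them with Salmon 1.5.1 on the GRCz11 reference transcriptome. They deposited the estimated counts per transcript, unscaled, in 1 table of 15 libraries, and the TPM and effective length in 1 file per library. Table and files held equal counts, to within 9.46e-11. The deposited TPM values divide the counts by effective length, so a shift in effective length moves TPM directly. It can also move the estimated counts, because Salmon uses it to divide reads between similar transcripts, which leaves the values of near-identical copies uncertain.

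Estimated counts were rounded to whole numbers and scaled by TMM, and the 14 libraries were tested with edgeR 4.0.16 (glmQLFit with robust settings, glmQLFTest, Benjamini-Hochberg adjustment, threshold 0.05) in R 4.3.3. The term was 10-100 against 0-5 μg/l. Differences among doses came from a fit with dose as a factor. SEs are the log2 fold change over the root of its F statistic. The tests were tried on simulated data. Alternatives used limma 3.58.1, DESeq2 1.42.0, effective length, TPM, other filters and libraries. Figures were made with matplotlib 3.10.9.

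Nothing states more than separate beakers behind the replicates, and p-values measure only the spread between these pools. A count of 0 allows up to 3 counts, and floors and intervals of counts cover counting error only. Named transcripts are those that the paper or the parts of its supplement used here pair with a symbol, and the 2 called transcripts with the largest rise and the 2 with the largest fall among those with a mean of at least 1 CPM and groups that do not overlap. For 11 of the 15 the supplement gives a gene identifier, and all 11 identifiers are in the reference name table, which uses other symbols for some (NHERF1 for slc9a3r1a, HSPA4 for hspa4b) and gives cldn29 where the supplement has a provisional name. The identifiers of trim101, hspa4b, yipf2 and mid1ip1l were read from a page that adds a zero to most identifiers, and the zero was dropped. Tests per gene, pathway lists and tissue markers are not analysed here, because no table used here pairs the transcripts at large with genes. The comparison, the members and the lists were chosen with earlier results of these data known.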

Additional observations from a re-analysis of the deposited data

Results flagged for a closer look

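For *yipf2*, control 0E had 20.3 CPM, apart from the other 0-5 μg/l libraries, which lay between 16.2 and 17.2 CPM (the gap was 0.751 of the range, against a critical value of 0.71 for 5 samples). It was the only one of 42 groups of values examined in this way, where chance gives about 1 in 20. Without 0E the log2 fold change of *yipf2* was 0.48 (edgeR, adjusted p = 0.0177).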

How the results depend on the processing

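The 481 transcripts became 2566 with DESeq2 (481 shared), 892 with limma on log2(CPM + 0.5) (479 shared), 1998 with the effective length offset (459 shared), 2390 on log2(TPM + 0.5) (426 shared), 276 with no filter (272 shared), 95 with 0B added (95 shared) and 40 at an adjusted p under 0.01. With alternatives chosen after the data were seen, they became 7505 without 10C and 100E and 23 with 0B in place of 0D. Leaving out each library gave 64 (without 0D) to 3233 (without 100E). Of the 15 named transcripts, 8 were called with DESeq2, 5 with the offset, 6 on TPM, 1 with no filter and 1 with dose as a factor. The number was 9 without 10C and 100E and 0 to 8 with each library left out. It was 0 with 0B added, with 0B in place of 0D and at an adjusted p under 0.01 (edgeR), with 8 at an unadjusted p under 0.05 in each. Transcripts that did not overlap numbered 492, and 833 on TPM, 191 with 0B added, 3975 without 10C and 100E and 516 to 1137 with each library left out. Among 10, 50 and 100 μg/l the 3 became 9 without 10C and 100E, 0 to 32 with each library left out, and 0 at an adjusted p under 0.01 (edgeR, 2841 unadjusted). Between 5 and 0 μg/l the 1 became 2 without 10C and 100E, and 1 to 24 with each library left out. The cause of these shifts was not tested.

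The fold change of *hspa4b* turned to -0.030 with the offset, -0.074 on TPM, -0.0056 without 10C and 100E and between -0.0089 and -0.0052 without 100E or 5E (all libraries in turn, -0.0089 to 0.035). That of *cyp26b1* turned to 0.013 with the offset, 0.016 with 0B added, 0.0011 with dose as a factor, 0.0020 with the block, 0.0088 with 0B in place of 0D and between 2e-04 and 0.0094 without 5A, 5E or 100C (all in turn, -0.056 to 0.0094). The other named transcripts kept their direction under the alternatives run.

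The main test does not take the replicate letters as pairs, since nothing states that a letter joins beakers across doses. The deviations of 14 same-letter pairs correlated between -0.081 and 0.279, with 7 over 0.1, among them those of 0E, 5E and 100E (0.178 to 0.268). Only 0D with 50D (-0.081) and 10C with 100C (-0.059) lay below 0. Pairs of different letters were not set beside these values, so whether the letters carry a shared part was not settled. The main test leaves any such part out. With the replicate block 491 transcripts differed, 187 higher and 304 lower, and 226 of them were shared with the 481. With it 0 differed among doses (edgeR, 2144 unadjusted) and 0 between 5 and 0 μg/l (edgeR, 743 unadjusted). Libraries of like effective length could not be compared across the groups, since no stretch of its first component holds both. The small number of low libraries limits precision, and depth limits transcripts with few counts.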
